A study of Rattus norvegicus with 320 samples.

Results

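The miR-379 to miR-410 cluster is a run of miRNA genes on rat chromosome 6 that lies inside an imprinted region, the Dlk1-Dio3 domain. Its members were chosen by name, as every counted miRNA whose hairpin is 1 of the 36 listed from miR-379 to miR-410, with or without an arm suffix. The choice gave 59 of the 616 miRNAs counted, from 34 hairpins, of which 25 had both arms in the table. The samples came from Fisher 344 rats (the strain as the labels spell it) aged 2, 6, 21 or 104 weeks, 4 rats of each sex at each age. Each of the 32 rats gave 10 organs, namely brain, adrenal gland, heart, kidney, liver, lung, skeletal muscle, spleen, thymus and either testis or uterus. The labels name no genetic change, transgene or drug for any rat, and the rats lived in pairs. Small RNA-seq of the 320 samples therefore formed 80 groups of 4, each of 1 organ, age and sex.

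In mammals these miRNAs are cut from long non-coding transcripts made only from the chromosome inherited from the mother, while neighbouring protein-coding genes such as Dlk1 and Rtl1 are expressed from the father's copy. The cluster is best known from neurons, where the factor Mef2 drives it with activity and where miR-134, one of its members, limits the growth of dendritic spines. In mice its deletion disturbs metabolic adaptation of newborns and alters anxiety-related behaviour. A miRNA finds its targets mainly through its seed, bases 2 to 8 from the 5′ end.

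All 59 members matched the RefSeq annotation of the rat assembly GRCr8, where they span chromosome 6 from position 134543460 to 134579828, a stretch of 36.4 kb. Of these, 58 lie on the plus strand and miR-299b-3p lies on the minus strand. The annotation places 27 of them inside the long non-coding RNA gene LOC102555254 (134349619 to 134558975) and the other 32 inside LOC120103623 (134559128 to 134586223). None lies inside Meg3 (134274056 to 134306249) or Rtl1 (134325231 to 134335780), which come before the cluster on the same chromosome.

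The mature sequences below are those of the members on which the comparisons turn, written 5′ to 3′ from RefSeq with the seed in capitals. The first 4 are the 3 most abundant members and the founding miR-379-5p:
miR-411-5p: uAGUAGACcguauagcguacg
miR-410-3p: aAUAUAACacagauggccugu
miR-541-5p: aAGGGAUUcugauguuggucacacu
miR-379-5p: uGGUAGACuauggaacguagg
The next members are those whose age or organ pattern differed from that of the rest:
miR-134-5p: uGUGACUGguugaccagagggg
miR-323-3p: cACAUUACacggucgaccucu
miR-323-5p: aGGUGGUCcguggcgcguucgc
miR-380-3p: uAUGUAGUaugguccacaucu
miR-412-3p: cUUCACCUgguccacuagccgu
miR-1193-3p: uAGGUCACccguuuuacuaucc
miR-376b-3p: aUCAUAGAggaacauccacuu
miR-376b-5p: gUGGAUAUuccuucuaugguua
The last 3 are printed because their reads can be confused or their seed is shared:
miR-300-3p: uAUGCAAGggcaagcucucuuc
miR-381-3p: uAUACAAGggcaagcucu
miR-539-3p: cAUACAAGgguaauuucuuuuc

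The members carried 57 different seeds. Only 2 seeds were shared between members, that of miR-381-3p with miR-539-3p, and that of miR-299a-3p with miR-299b-3p. The seeds of miR-379-5p and miR-411-5p, and those of miR-300-3p and miR-381-3p, differ at 1 of 7 bases. In 3 pairs the mature sequences match over most of their length with at most 1 mismatch, namely miR-300-3p with miR-381-3p, miR-411-3p with miR-379-3p and miR-299a-3p with miR-299b-3p. Because the reads were aligned allowing a mismatch, the split of counts within these 3 pairs is uncertain.

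Total miRNA counts ran from 315550 to 10571766 per sample with a median of 2856968, at which 3 counts correspond to 1.05 CPM (the usual unit of counts scaled to the total miRNA count of their sample). Liver was the shallowest organ, with a median of 1040989 counts, where 3 counts correspond to 2.88 CPM. Among the members, 47 had a mean of at least 10 counts per sample and 12 were below that, and miR-411-5p, miR-541-5p and miR-410-3p had a read in all 320 samples. The samples of brain and liver carried their own marker miRNAs. The brain list (miR-124-3p, miR-9a and others) summed to a mean of 90710 CPM in brain and a mean of at most 4880 CPM in any other organ. The liver list (miR-122 and miR-802-5p) summed to a mean of 32100 CPM in liver and at most 128 CPM in any other organ. Single samples went higher, up to 13383 CPM of the brain list in thymus and 3030 CPM of the liver list in lung. The kidney list was highest in liver (224104 CPM, against 57125 CPM in kidney) and the list for lung and other epithelium in kidney (5110 CPM, against 3421 CPM in lung). The study left out a male brain sample at week 6 and a female spleen sample at week 104, and these were left out here too, so all but these 2 samples were compared. In 8 of the 80 groups 1 sample stood apart in the summed level of the cluster, among them these 2. Of the other 6, a male kidney sample at week 2 also held 709 CPM of the liver list against 21.4 to 25.2 CPM in the rest of its group. All 480 pairs of replicates differed by more than counting noise, with a chi-square of at least 12.7 per degree of freedom. By the design each replicate came from a separate rat, and each was counted as a separate sample.

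The summed level of the 59 members was high in brain and adrenal gland at all ages, and in skeletal muscle and liver it was as high at week 2 only. In CPM at week 2 the ranges of skeletal muscle and brain overlapped, and so did those of liver and adrenal gland. In brain at week 2 the summed level was lowest at 43629 CPM, with a median of 49145 and a highest of 59552 CPM (n = 8). Skeletal muscle at week 2 ran from 28744 CPM through a median of 53429 to 66165 CPM (n = 8). Liver at week 2 ran from 11854 through 17983 to 35438 CPM, and adrenal gland from 15341 through 20522 to 23097 CPM (n = 8 each). Brain and skeletal muscle both lay above adrenal gland. The likeness in CPM depended on the scale, since without the 10 most abundant miRNAs in the total the mean was 90227 CPM in brain and 133190 CPM in skeletal muscle, and 57948 CPM in adrenal gland and 30002 CPM in liver. Without miR-411-5p in the sum brain stood at 37534 CPM and skeletal muscle at 23824 CPM, and TMM scaling gave 20613 CPM in brain. On average the members made up 5.001% of all miRNA counts in brain and 5.07% in skeletal muscle at that age.

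The remaining organs held far less at week 2. The mean was 5283 CPM in testis and 2102 CPM in uterus (n = 4 each), 1885 CPM in lung, 1639 CPM in heart, 1413 CPM in spleen, 759 CPM in thymus and 345 CPM in kidney (n = 8 each). By week 104 brain still ran from 22552 through 24006 to 27282 CPM and adrenal gland from 16273 through 20110 to 24115 CPM (n = 8 each). Skeletal muscle had come down to between 193 and 522 CPM with a median of 332, and liver to between 26.4 and 266 CPM with a median of 32.9. Brain and adrenal gland thus overlapped at week 104, and every sample of either lay above every sample of the other 9 organs. In bulk RNA of a whole organ, fewer cells of a type and less RNA in each cell cannot be told apart.

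**Figure D1:**
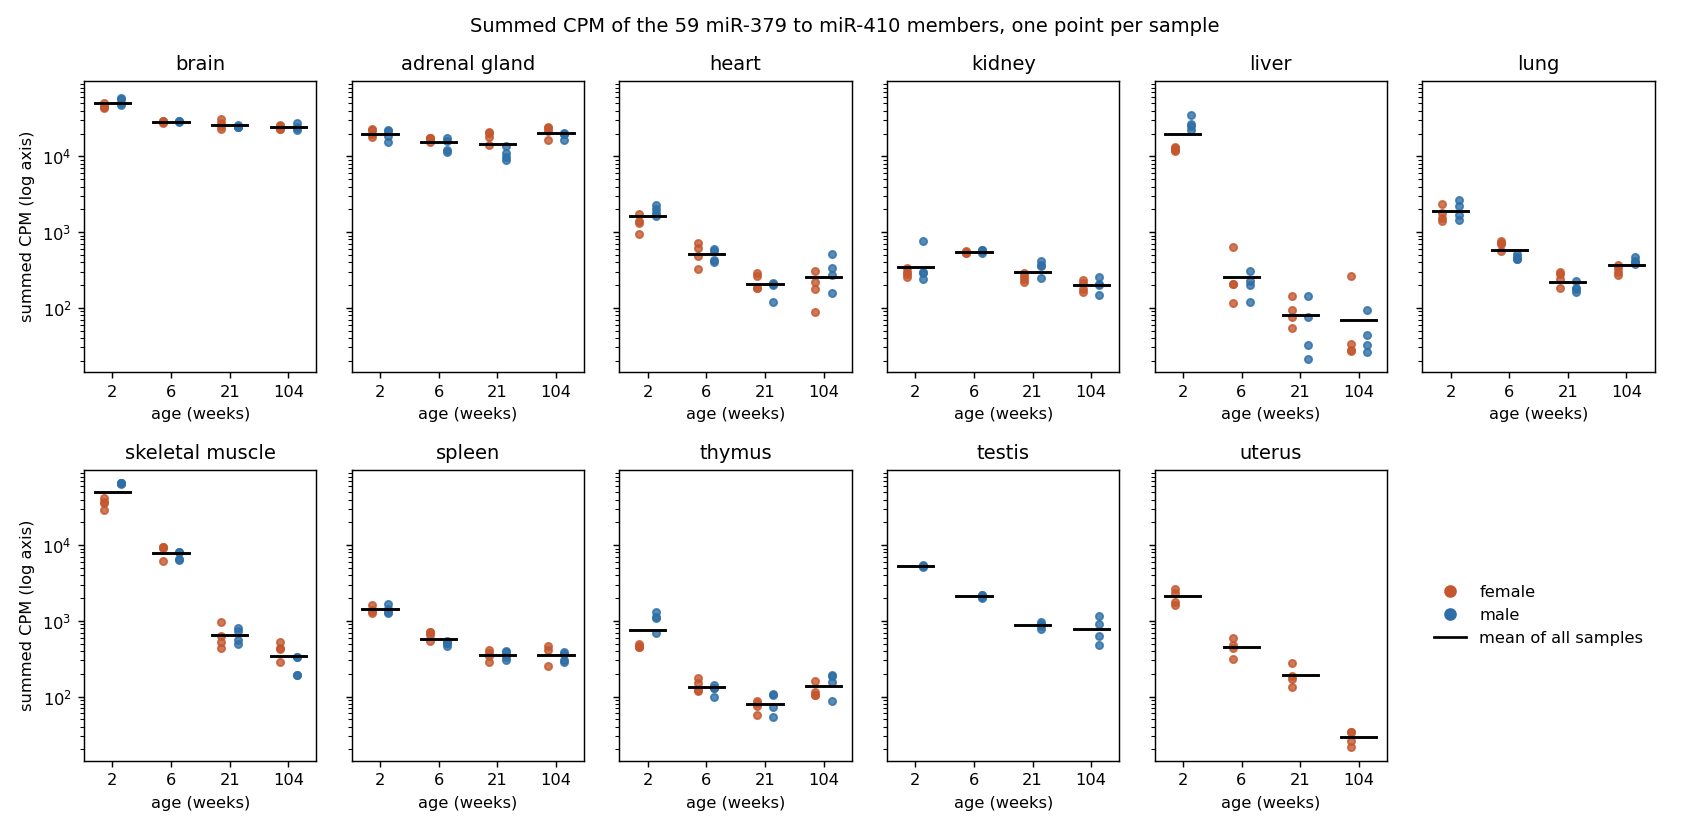
Each point is the summed CPM of the 59 members in 1 sample (log axis, the same in every panel) against age in weeks, with females in orange, males in blue and the mean of all samples as a black line. Brain and adrenal gland hold at least 9007 CPM in every sample, while skeletal muscle and liver start beside them at week 2 and end at medians of 332 and 32.9 CPM.

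Between week 2 and week 104 the summed CPM was lower without overlap of the samples in 9 of 11 organs. The mean was 291-fold lower in liver, 149-fold in skeletal muscle and 72.8-fold in uterus. The liver mean of 68.8 CPM at week 104 was 31.7 CPM without replicate 4. Smaller differences were seen in testis (6.70-fold), heart (6.32-fold), thymus (5.49-fold), lung (5.11-fold), spleen (4.01-fold) and brain (2.05-fold). In kidney the mean was 1.73-fold lower and the ranges overlapped, and in adrenal gland the ratio of the means was 1.01. The sum is given as a description with no test, and the tests were made member by member.

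Counts of all miRNAs entered 1 fit per organ, in which edgeR's quasi-likelihood method tested each member, and a member was called where the Benjamini-Hochberg adjusted p was under 0.05 and the change at least 1.5-fold. The log2 changes of these fits were scaled by TMM, which holds the typical miRNA constant, so they can differ from ratios of CPM. From week 2 to week 104 all 59 members fell in skeletal muscle, where 30.7% of all miRNAs tested fell. In liver 55 of 59 fell (28.3% of all), in lung 52 of 59 (23.5%) and in uterus 51 of 58 (27.3%). In spleen 42 fell (22.2%), in heart 40 (23.1%), in thymus 35 (30.7%) and in testis 31 (36.7%). Kidney, with 12 of 58 (22.7%), was near the share of all miRNAs. The kidney count was 7 without replicate 4, the thymus count 23 without replicate 1, and the spleen count 12 with the removed female sample put back. The median log2 change of the members was −6.56 in liver and −5.87 in skeletal muscle, against −0.18 and −0.19 over all miRNAs tested. It was −4.51 in uterus (−0.18 over all), −2.16 in lung (−0.01), −2.03 in spleen (−0.09), −1.77 in thymus (−0.19), −1.69 in heart (0.07), −1.36 in testis (−0.57) and −0.68 in kidney (−0.15).

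Many members were so rare in the old rats that their change is only a lower limit. In liver 45 members had at most 3 counts in every sample of 1 of the ages compared, in uterus 29 and in skeletal muscle 19. With such members set to that limit, the median log2 change was −3.98 in liver, −3.88 in uterus and −5.49 in skeletal muscle, and −1.95 in lung, −1.66 in heart, −1.24 in testis, −1.23 in thymus and −0.32 in kidney. Scaled by library size alone, the median of all miRNAs moved by −0.94 in skeletal muscle, −1.13 in uterus, −2.07 in testis, and by −0.45 to 0 in the other organs, so changes are best read against that shift.

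In skeletal muscle the fall was spread over the first 2 steps. 57 members fell from week 2 to week 6 (24.2% of all miRNAs), 56 from week 6 to week 21 (24.0%) and 15 from week 21 to week 104 (7.68%), with median log2 changes of −2.08, −2.92 and −0.86. miR-411-5p, the most abundant member, ran from 14943 CPM through a median of 27754 to 38015 CPM at week 2. It was between 2871 and 5272 CPM at week 6, between 193 and 496 CPM at week 21 and between 82.0 and 282 CPM at week 104. No pair of neighbouring ages overlapped up to week 21, and the log2 change from week 2 to week 104 was −6.28 ± 0.24 (SE, edgeR adjusted p = 4.73e-22). miR-410-3p, the last miRNA of the cluster, fell further, from a median of 9264 CPM (5753 to 12255) to 31.9 CPM (15.9 to 49.6), a log2 change of −7.22 ± 0.26 (edgeR adjusted p = 9.65e-23). Of the 10 most abundant members miR-376b-3p changed least, by −4.24 ± 0.34 on the log2 scale.

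The members named with miR-134 and miR-379 behaved alike in muscle. miR-134-5p had a median of 361 CPM at week 2 (159 to 629) and of 3.23 CPM at week 104 (1.14 to 4.64). miR-379-5p had a median of 323 CPM at week 2 (179 to 443) and of 3.65 CPM at week 104 (0.868 to 7.38). The ranges of the youngest and oldest rats did not come near each other, with log2 changes of −5.72 ± 0.24 and −5.49 ± 0.27. A group of members had their highest organ mean in muscle, not brain, and in all 4 its level there was highest at week 2. Among them miR-299a-5p had a median of 138 CPM in muscle at week 2 (122 to 192) against 11.8 CPM in brain, and miR-377-3p 254 CPM (206 to 300) against 49.9 CPM. The others, miR-377-5p and miR-381-5p, had medians of 31.4 CPM and 15.9 CPM and at week 104 were at least 28.5-fold and 12.6-fold lower.

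In liver most of the fall on the log scale came in the first step, by week 6, when the summed level was 79.2-fold below that of week 2. At that step 52 members fell (22.7% of all miRNAs), with a median log2 change of −5.04. miR-411-5p ran from 6331 CPM through 9473 to 18349 CPM at week 2 and from 57.5 through 102 to 304 CPM at week 6. At week 104 it ran from 8.85 through 15.3 to 130 CPM, a log2 change from week 2 of −8.004 ± 0.55 (edgeR adjusted p = 7.69e-15). The week 2 samples all lay far above those of the later ages. miR-541-5p had a median of 2931 CPM at week 2 (2084 to 7582) and of 4.89 CPM at week 104 (3.16 to 39.3), a log2 change of −8.21 ± 0.46 (edgeR adjusted p = 6.33e-17). miR-376b-3p had a median of 526 CPM at week 2 (339 to 1318), and at week 104 no sample passed 3 counts, so it was at least 234-fold lower. On the same limit miR-1193-3p was at least 90.7-fold, miR-379-5p 77.3-fold and miR-134-5p 63.0-fold lower.

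The limits reflect the depth of liver, whose 8 samples at week 104 held a median of 36 counts of the whole cluster. The 4 members that were not called in liver, miR-323-5p, miR-667-5p, miR-300-5p and miR-487b-5p, were at a median of at most 0.335 CPM there at week 2. Liver also gave the only member whose highest organ mean was in liver, miR-154-3p, with a median of 48.8 CPM at week 2 (16.1 to 150) against 5.42 CPM in brain and 2.27 CPM in adrenal gland at that age. In the old liver a single female sample stood apart, with 266 CPM of the cluster where the other 3 females had 26.5, 27.6 and 33.5 CPM. Leaving out any replicate number gave 53 or 54 members called lower in liver.

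Uterus differed from the other organs in that a large part of its fall came late. Its samples held 1612, 1799, 2362 and 2634 CPM of the cluster at week 2, 317.9, 435, 478 and 592 CPM at week 6, and 134, 171, 188 and 276 CPM at week 21. At week 104 they held 21.5, 26.1, 33.6 and 34.2 CPM. The 4 ages did not overlap, and uterus was the only organ in which the samples of week 104 all lay below those of week 21. From week 21 to week 104, 24 members fell in uterus (9.64% of all miRNAs), with a median log2 change of −2.08 against −0.15 over all miRNAs. From week 2 to week 104 the log2 change was −5.52 ± 0.22 for miR-411-5p (edgeR adjusted p = 9.9e-14) and −4.33 ± 0.29 for miR-410-3p (edgeR adjusted p = 1.09e-10).

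Levels of 3 miRNAs typical of mesenchymal cells (miR-199a-5p, miR-199a-3p and miR-214-3p) were lower with age in several organs and higher in thymus. Their summed mean went from 6436 CPM at week 2 to 921 CPM at week 104 in skeletal muscle, and from 8384 to 659 CPM in testis. It went from 1861 to 1171 CPM in liver, from 10410 to 8315 CPM in uterus, and from 1098 to 2758 CPM in thymus, where the cluster was lower at week 104. The part of such cells in the changes of the cluster was not tested.

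In heart, lung, spleen, thymus and testis the cluster was already low and went lower. miR-411-5p in heart went from a median of 864 CPM (532 to 1267) to 104 CPM (32.2 to 229), a log2 change of −2.53 ± 0.21 (edgeR adjusted p = 9.86e-13). In lung it went from 902 CPM (749 to 1461) to 178 CPM (134 to 218), a log2 change of −2.24 ± 0.17 (edgeR adjusted p = 1.18e-12). In spleen it went from 612 CPM (511 to 773) to 156 CPM (125 to 240), with −1.54 ± 0.16 (edgeR adjusted p = 5.68e-09). In none of these organs did the youngest and oldest samples overlap. In thymus it went from 327 CPM (224 to 727) to 66.9 CPM (36.6 to 88.6), with −2.88 ± 0.17 (edgeR adjusted p = 1.71e-16). The spleen samples of the youngest rats had low RNA integrity by the account of the study, and its part in the spleen comparison was not tested.

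Testis held 5117, 5262, 5296 and 5455 CPM of the cluster at week 2, 2007, 2079, 2180 and 2193 CPM at week 6, and 790.1, 851, 900.4 and 962 CPM at week 21. At week 104 it held 480, 631, 900.4 and 1141 CPM, which overlapped week 21. The direction of this last step depended on the scaling: under TMM 22 members rose and 1 fell (25.5% of all miRNAs rose), whereas by library size alone 2 rose and 7 fell. Without replicate 2 or 4 the rises were 12 or 15 under TMM. In the same way 31 members fell from week 2 to week 104 under TMM and 54 by library size alone. The median of the members lay 0.78 below that of all miRNAs on the log2 scale under TMM and 0.71 below it by library size. For the last step the members lay 1.09 above all miRNAs under TMM and 1.06 above them by library size. Markers of testis germ cells moved far more over these ages, with a summed mean of 4030 CPM at week 2 (1801 to 7900.2), 184146 CPM at week 6 (162263 to 206159), 175159 CPM at week 21 (152476 to 190922) and 973 CPM at week 104 (76.0 to 2436). The part of these cells in the changes of the cluster in testis was not tested.

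Across the organs, 28 of 59 members (47.5%) fell in at least 8 organs between week 2 and week 104, compared with 86 of all 616 miRNAs (14.0%). Only miR-410-3p and miR-380-3p among the members fell in 10, all but adrenal gland, and 16 of all 616 miRNAs fell in at least 10.

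Brain and adrenal gland, the organs that kept the cluster, went in different directions with age. In brain 22 members fell from week 2 to week 104 and 4 rose (20.5% and 21.8% of all miRNAs), with a median log2 change of −0.44 against 0.07 over all. In adrenal gland 24 rose and 4 fell (19.1% and 21.1% of all), with a median of 0.48 against −0.06. By library size alone the split was 1 higher and 39 lower in brain, and 7 higher and 11 lower in adrenal gland, where the median of all miRNAs moved by −0.33 and −0.43. Relative to all miRNAs the members' median was −0.51 in brain under TMM and −0.53 by library size, and 0.54 and 0.52 in adrenal gland.

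By amount the loss in brain was led by miR-410-3p, and by fold by a few rarer members. miR-410-3p in brain ran from 10471 through 14826 to 21569 CPM at week 2, from 5421 through 5623 to 6788 CPM at week 6, and from 3491 through 3985 to 5100 CPM at week 104. The samples of week 2 lay above all later ones, and the log2 change to week 104 was −1.46 ± 0.10 (edgeR adjusted p = 1.5e-12). The 3 largest falls in brain were of miR-412-3p, miR-1193-3p and miR-412-5p, by −2.89 ± 0.17, −2.70 ± 0.29 and −2.44 ± 0.17 on the log2 scale (edgeR adjusted p = 4.86e-14, 4.59e-09 and 6.88e-13). miR-412-3p stood at a median of 51.6 CPM at week 2 (40.2 to 69.2), 10.8 CPM at week 6 (7.67 to 14.99) and 5.24 CPM at week 104 (2.82 to 9.45). miR-134-5p, the spine-limiting miRNA, went from a median of 436 CPM (320 to 602) to 178 CPM (158 to 302), a log2 change of −0.84 ± 0.09 (edgeR adjusted p = 1.17e-08). Its week 2 samples lay above those of week 104. Most of the loss in brain was early, since 16 members fell from week 2 to week 6 (15.4% of all miRNAs) and 3 rose. Every brain sample compared at week 6 was sequenced in lane 7 or 8, and no brain sample of another age was in lane 8. Lane and age are therefore partly mixed in this step, and their parts were not told apart.

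Both arms of miR-376b rose in brain. miR-376b-5p went from a median of 126.5 CPM at week 2 (54.1 to 204) to 278 CPM at week 104 (244 to 392), without overlap, a log2 change of 1.71 ± 0.18 (edgeR adjusted p = 2.46e-09). miR-376b-3p went from a median of 619 CPM (527 to 740) to 918 CPM (707 to 1188), which overlap slightly, with 1.00 ± 0.09 (edgeR adjusted p = 2.81e-10). The other members that rose were miR-381-3p, by 0.74 ± 0.11 (edgeR adjusted p = 1.46e-06), and miR-154-5p. By library size alone miR-376b-5p stayed called at 1.28, while miR-376b-3p stood at 0.58 and miR-381-3p at 0.33, both under the 1.5-fold threshold. miR-411-5p was not called in brain, at −0.13 ± 0.09 (edgeR adjusted p = 0.25), nor was miR-379-5p at 0.14 ± 0.25 (edgeR adjusted p = 0.664), whose estimate turned to −0.27 by library size. The CPM of miR-411-5p were nevertheless lower at week 104, from 6747 through 8607 to 9444, than at week 2, from 9799 through 12820 to 13982. By library size alone its log2 change was −0.56, under the 1.5-fold threshold, where the median of all miRNAs was −0.33.

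In adrenal gland the summed level did not separate week 2 from week 104, and the members moved apart. The largest rises were of miR-1193-3p by 1.58 ± 0.34, miR-541-3p by 1.48 ± 0.31 and miR-381-3p by 1.41 ± 0.16 (edgeR adjusted p = 0.000211, 0.000196 and 8.87e-09). miR-381-3p in adrenal gland went from a median of 89.0 CPM (59.6 to 103) to 169 CPM (139 to 190), with no overlap. miR-376b-5p rose as in brain, from 68.1 CPM (37.4 to 91.2) to 110 CPM (71.8 to 163), by 1.23 ± 0.20 (edgeR adjusted p = 3.5e-06). miR-134-5p, which fell in brain, rose in adrenal gland from 305 CPM (240 to 379) to 403 CPM (290 to 447), by 0.76 ± 0.17 (edgeR adjusted p = 0.000524). By library size alone that rise was 0.35 (edgeR adjusted p = 0.0830) and was not called. miR-412-3p fell here too, from 8.79 CPM (4.81 to 10.9) to 1.51 CPM (0.580 to 1.83), by −2.09 ± 0.30 (edgeR adjusted p = 5.89e-07). miR-411-5p had almost the same median at both ages, 10549 and 10681 CPM, and was not called.

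The rise in adrenal gland came late. From week 2 to week 6, 12 members fell (14.2% of all miRNAs) and 1 rose, and from week 21 to week 104, 12 rose (5.56% of all), with a median log2 change of 0.42. The latter count was 6 with the sequencing lane as a covariate and ran from 5 (without replicate 2 or 3) to 14 (without replicate 4).

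The change of each member from week 2 to week 104 was then compared with its change in brain, in a model of all organs with an interaction term. In adrenal gland 37 members had a higher change than in brain (18.3% of all miRNAs), with a median difference of 1.04 log2 units. A lower change than in brain was called for all 59 members in skeletal muscle (27.6%), 51 in liver (23.9%), 49 in uterus (33.4%) and 38 in lung (22.1%). It was called for 33 in spleen (24.5%), 31 in heart (20.3%), 31 in thymus (33.6%) and 15 in testis (24.0%). The share in testis was near that of all miRNAs, and by library size alone thymus stood at 13 and testis at 41. In kidney 4 members changed more positively than in brain and 8 more negatively (6.66% and 20.0%), and the 8 became 2 under each of 4 alternative settings. Without replicate 2 or 3 the count in adrenal gland was 21 or 24, and without replicate 1 or 2 it was 19 in heart for either and 16 or 20 in spleen. Testis was at 3 or 4 without replicate 1, 2 or 3, lung at 21 without replicate 1, thymus at 15 without replicate 2, and kidney at 0, 2 or 4 without replicate 1, 2 or 4.

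**Figure D2:**
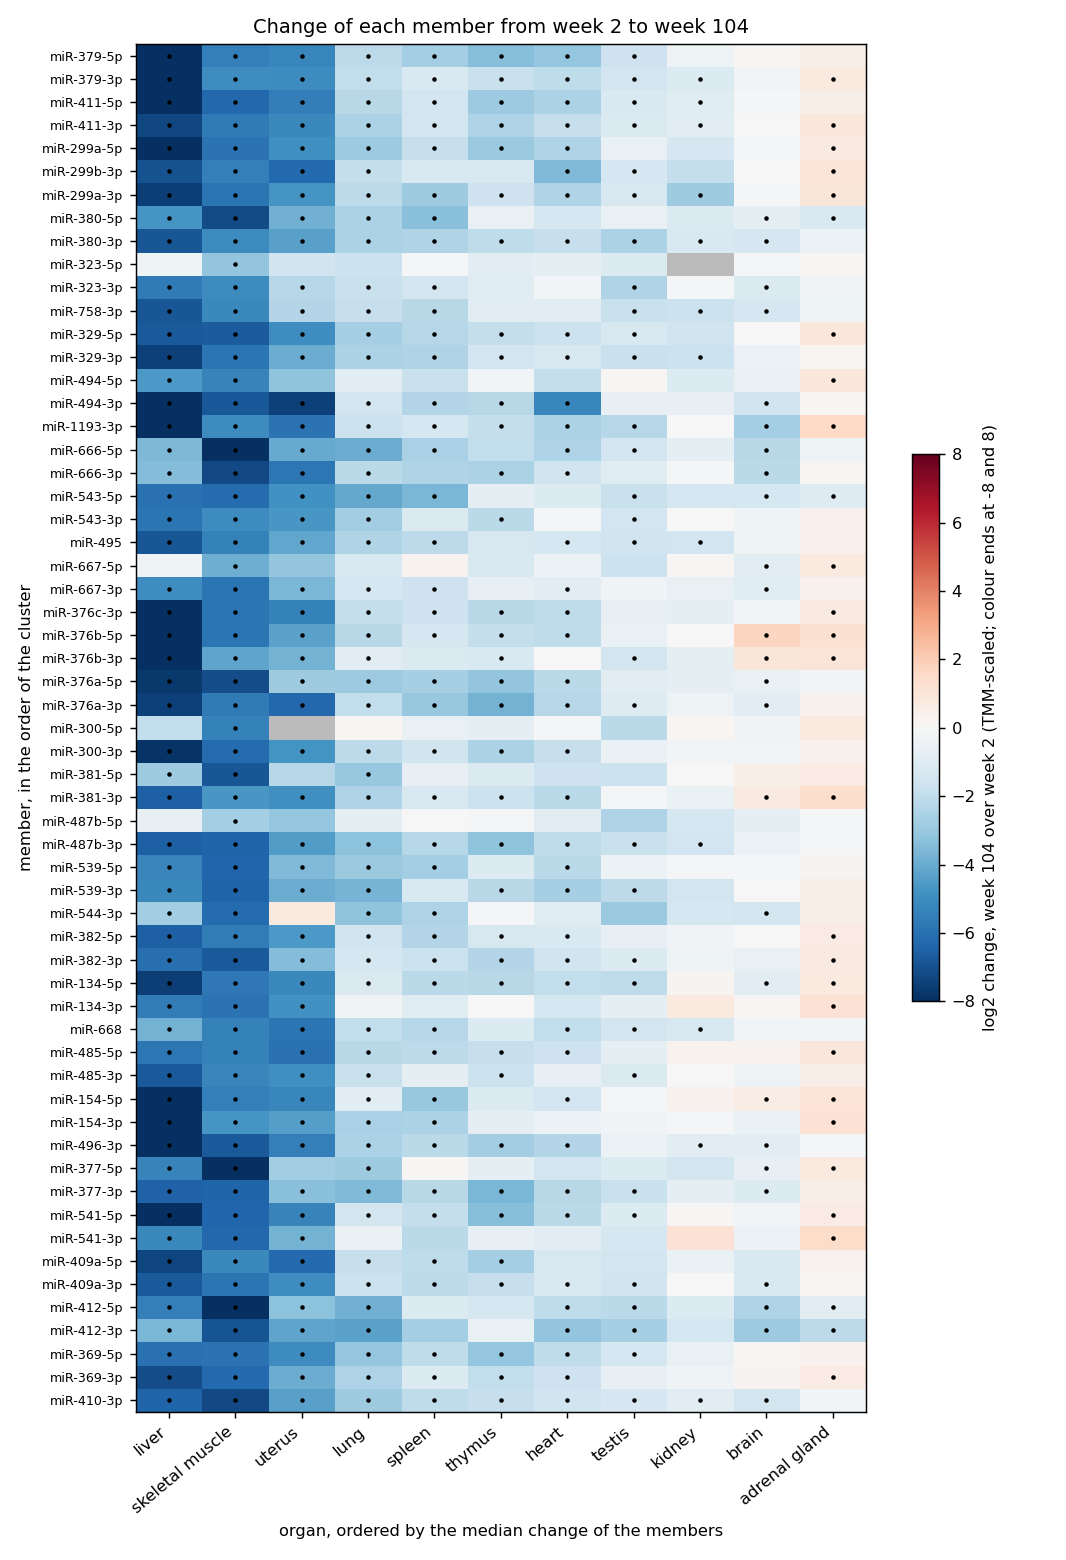
Each cell is the log2 change (TMM-scaled) of 1 member from week 2 to week 104, with members in their order along the cluster from top to bottom and organs from the lowest median change on the left, blue lower and red higher at week 104. Black dots mark called changes and grey cells were not tested. The blue is deepest in liver, skeletal muscle and uterus, with medians of −6.56, −5.87 and −4.51, and the adrenal gland column at the right has 24 called rises. In these organs many members had at most 3 counts in every sample of 1 age, so their changes are lower limits. With such members set to that limit, the median is lowest in skeletal muscle and not in liver.

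Kidney was the only organ in which the mean of the cluster was higher at week 6 than at week 2. At week 2 the kidney samples ran from 241 through 294 to 755 CPM, at week 6 from 522 through 554 to 589 CPM and at week 104 from 148 through 204 to 256 CPM. The highest sample of week 2 was the male one with liver markers, and the other 7 lay wholly below week 6. From week 2 to week 6, 15 members rose (12.6% of all miRNAs), with a median log2 change of 0.52 against −0.10 over all. miR-541-5p went from a median of 57.6 CPM (34.2 to 99.6) to 156 CPM (128 to 200), without overlap, by 1.36 ± 0.17 (edgeR adjusted p = 2.07e-08). miR-134-5p went from 6.42 CPM (5.53 to 11.5) to 18.3 CPM (13.8 to 19.8), also without overlap, by 1.22 ± 0.14 (edgeR adjusted p = 2.75e-09). The count of 15 was 22 without replicate 1, 7 without replicate 2 and 9 without replicate 3 or 4, and 8 with the lane as a covariate.

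The other miRNAs of the Dlk1-Dio3 domain did not share this rise. They are the 23 counted miRNAs of the same imprinted region outside the cluster, among them miR-127-3p, which is made antisense to Rtl1. From week 2 to week 6 in kidney 14 of these 23 fell, while 20.3% of all miRNAs did, with a median log2 change of −1.91. miR-127-3p in kidney had a median of 487 CPM at week 2 (340 to 1364) and of 180 CPM at week 6 (66.3 to 238). The sum of the 23 was 1.497 to 2.89 times that of the cluster in the 8 kidney samples of week 2 (median 2.16) and 0.153 to 1.43 times in the 24 later ones (median 0.382). In the 286 samples of the other organs it was 1.87 to 9.94 times (median 4.49). The ratio in kidney after week 2 therefore lay below that of every sample of another organ. The kidney sum of the 23 was mostly miR-127-3p, with a mean of 609 of 746 CPM at week 2 and 163 of 192 CPM at week 6. This comparison of sums was chosen after the data were seen and has no test.

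**Figure D3:**
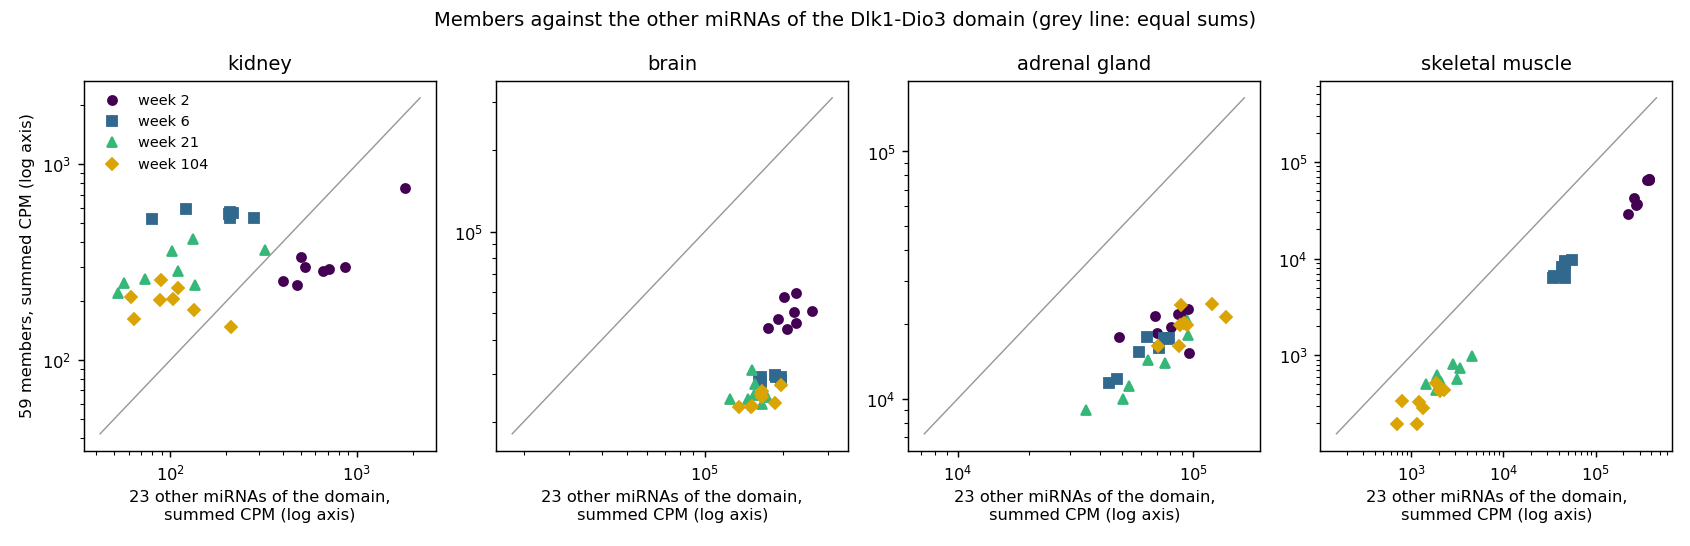
Each point is 1 sample, with the summed CPM of the 23 other miRNAs of the domain on the horizontal axis and that of the 59 members on the vertical axis, both logarithmic, and the grey line marks equal sums. Points of brain, adrenal gland and skeletal muscle lie below the line at every age, whereas in kidney the samples of weeks 6, 21 and 104 lie above it, apart from 1, and those of week 2 below it.

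Compared with the other organs, brain held the highest mean of 46 members, adrenal gland of 8, skeletal muscle of 4 and liver of 1. Against adrenal gland 32 members were higher in brain and 10 lower at week 2 (39.6% and 29.1% of all miRNAs), 18 higher and 22 lower at week 21 (33.8% and 35.7%), and 11 higher and 23 lower at week 104 (33.6% and 30.0%). The median difference went from 0.64 at week 2 to −0.14 and −0.37 on the log2 scale. These splits depended on scaling, since by library size alone 47, 41 and 36 members were higher and 5, 7 and 10 lower, with the median of all miRNAs between 1.08 and 1.38 at all ages. Relative to all miRNAs the order of the ages was the same under both. Against skeletal muscle at week 2, 13 members were higher and 27 lower in brain (40.1% and 33.1%), and by library size 28 and 17. Against liver at week 2, 37 were higher and 13 lower (42.4% and 31.8%). At week 104 all 59 were higher in brain than in heart (45.3%), and 53 were higher than in testis (42.2%).

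A small set of members was higher in brain than in each other organ at each age. With a 1.5-fold threshold in all 40 comparisons these were miR-323-5p, miR-323-3p, miR-758-3p, miR-380-3p, miR-412-5p and miR-300-5p, that is 6 of 59 against 12.7% of all miRNAs. With a 4-fold threshold they were the 2 arms of miR-323 (7.95% of all miRNAs). Under TMM neither share of the members exceeded that of all miRNAs, so such brain enrichment was not particular to the cluster. By library size alone the median of all miRNAs lay 0.51 to 2.42 log2 units higher in brain over the 40 comparisons. On that scale the member counts were 23 and 5, and the share of all miRNAs is not given here. Among members with a mean count of at least 10 the counts under TMM were 3 and 1. The smallest of the 40 ratios was 8.06 for miR-323-5p, against skeletal muscle at week 2, and 5.25 for miR-323-3p, against adrenal gland at week 104. It was 3.96 for miR-758-3p, 3.10 for miR-380-3p, 1.91 for miR-412-5p and 1.53 for miR-300-5p. miR-323-3p had a median of 1435 CPM in brain at week 2 (1102 to 1824) against 62.5 CPM in adrenal gland (42.4 to 79.1). At week 104 it had 417 CPM (412 to 660) against 37.9 CPM (24.6 to 49.0), so brain and adrenal gland did not overlap at either age. The hairpins of miR-380, miR-323 and miR-758 follow each other along the chromosome.

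The proportions within the cluster differed between organs as well as the level. miR-411-5p made up 25.1% ± 2.33 of the member counts in brain at week 2 and 34.8% ± 2.35 at week 104 (SD, n = 8), but 52.0% ± 1.34 and 53.4% ± 2.63 in adrenal gland. It made up 52.7% ± 2.40 in skeletal muscle and 52.5% ± 3.40 in liver at week 2. miR-410-3p made up 30.1% ± 3.86 in brain at week 2 and 16.7% ± 1.06 at week 104, against 10.9% ± 1.51 and 7.04% ± 0.79 in adrenal gland and 3.19% ± 0.89 in liver at week 2. The ratio of miR-410-3p counts to miR-411-5p counts at week 2 was thus far higher in brain than in liver. miR-541-5p made up 5.61% ± 1.61 in brain at week 2, 18.7% ± 2.32 in liver at week 2 and 28.6% ± 4.62 in kidney at week 6. These percentages are ratios of counts and depend on how well each miRNA is ligated and amplified, which was not measured, so they compare organs and not the true amounts of 2 miRNAs.

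**Figure D4:**
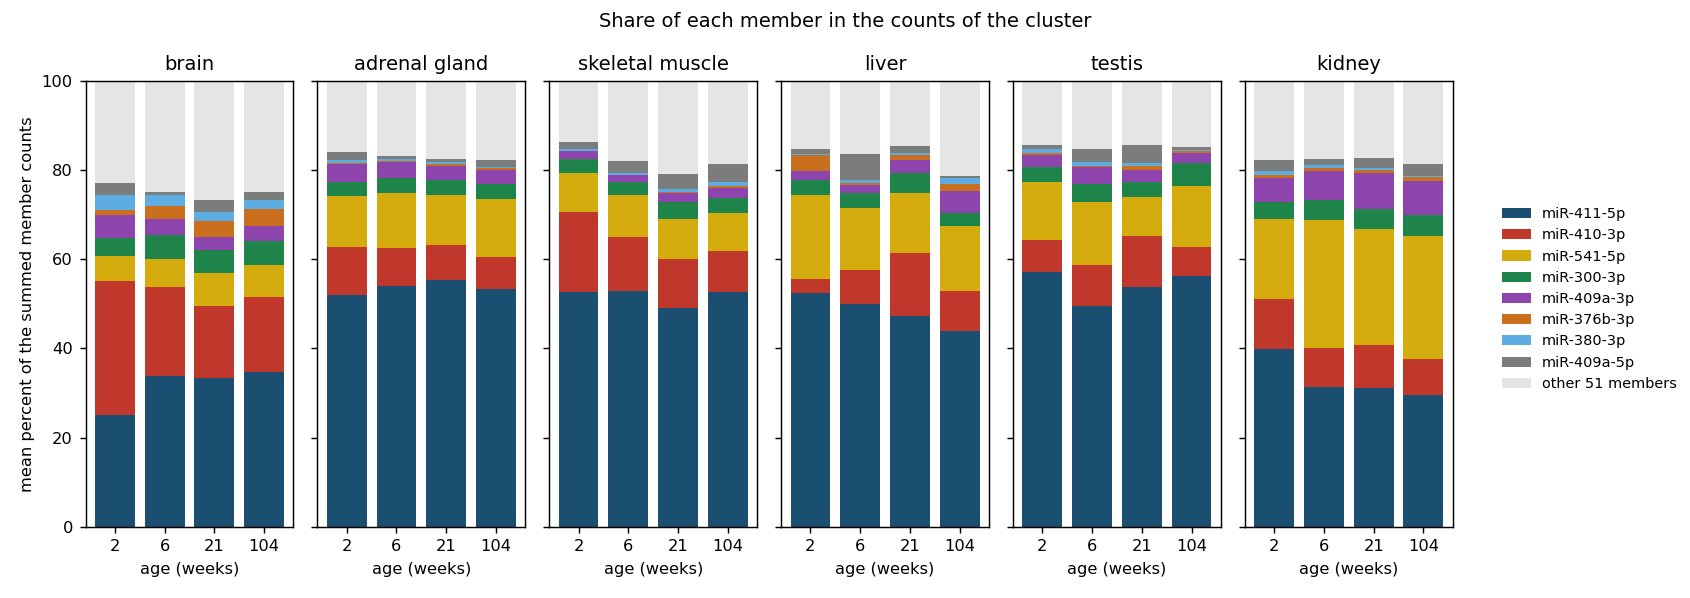
Bars show the mean percent of the summed member counts taken by each of 8 abundant members and by the other 51, at each age (weeks) in 6 organs, and each bar reaches 100. The bar of miR-411-5p in brain goes from 25.1% to 34.8% while that of miR-410-3p goes from 30.1% to 16.7%, and miR-541-5p takes its widest share in kidney, at 28.6% in week 6.

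Tested with the cluster total as the scale, 29 members took a larger and 11 a smaller proportion in brain than in adrenal gland at week 21. On that scale 45.0% and 23.9% of all miRNAs were called. The largest differences in favour of brain were of miR-323-5p at 4.43 ± 0.33 and miR-323-3p at 3.51 ± 0.28 on the log2 scale (edgeR adjusted p = 8.86e-15 and 1.52e-19). In favour of adrenal gland they were of miR-1193-3p at −3.98 ± 0.40 and miR-494-5p at −3.13 ± 0.36 (edgeR adjusted p = 1.68e-14 and 1.22e-11). Against skeletal muscle at week 2, 29 were larger and 17 smaller in brain (56.2% and 20.8% of all), with miR-758-3p at 4.22 and miR-323-3p at 4.08 at one end, and miR-299a-5p at −3.71 and miR-381-5p at −3.16 at the other. Within brain 13 proportions were larger and 12 smaller at week 104 than at week 2 (41.6% and 10.4%), with miR-376b-5p up by 2.32 ± 0.16 and miR-412-3p at −2.28. With the total taken without miR-411-5p the old brain had 23 larger and 7 smaller, brain against adrenal gland had 21 smaller in place of 11, and brain against skeletal muscle had 18 larger in place of 29. As a plain measure of likeness, the composition of brain shared 51.2% (liver at week 2) to 85.8% of its counts with that of another organ of the same age, and 79.0% with itself between week 2 and week 104.

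The balance of the 2 arms cut from a hairpin was nearly constant for some members and differed by organ for others. The 5p arm of miR-411 made up a mean of 94.8% to 99.2% of its hairpin's counts in every organ and age with enough counts (at least 20 per sample). The 5p arm of miR-376b made up 14.5% ± 4.21 in liver at week 2 (9.61% to 21.8%, n = 8) and 16.9% ± 5.44 in brain at week 2 (8.51% to 25.1%). It made up 76.9% ± 10.9 in skeletal muscle (63.2% to 88.1%) and 78.8% ± 5.03 in lung (72.2% to 85.1%) at the same age, and a mean of 53.2% in adrenal gland. The ranges in liver and brain thus lay wholly below those in skeletal muscle and lung, so the arm of miR-376b with more counts differed between these organs. Ligation was not measured, so the counts do not show which arm was truly more abundant. miR-376 transcripts are also known for A-to-I editing in brain, and edited reads were not told apart from others in these counts. For miR-154, added here after its values were seen, liver at week 2 gave 56.8% ± 8.90 of the 5p arm (44.9% to 69.6%) against a mean of 90.9% in brain and 95.1% in skeletal muscle. For miR-376a, likewise, skeletal muscle at week 2 gave 74.4% ± 9.97 (63.6% to 85.3%) against 36.4% in brain.

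The 2 arms of miR-409a varied widely among samples of 1 group, with the 5p arm at 331 to 3965 CPM in brain at week 2. The brain mean of miR-409a-5p ran from 84.3 CPM in lane 8 to 1923 CPM in lane 3. All compared brain samples in lane 8 were of the same age, and lane 3 held none of that age. Lane and age therefore cannot be told apart in these means. Within groups, over all compared samples, lane of sequencing held 34.1% of the variance of miR-409a-5p. Its changes with age are therefore not described further. For miR-1193-3p the lane held 21.6%, the next highest share among the members. Its changes in brain and adrenal gland and its difference in proportion, given above, are to be read with that limit.

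Averaged over the ages, sex made little difference that passed the test. The one member called in the 9 organs of both sexes was miR-376b-5p in skeletal muscle, higher in females by 0.72 ± 0.17 on the log2 scale (edgeR adjusted p = 0.0264), where 0.163% of all miRNAs were called. The count of 1 was 2, 0, 1 and 0 without replicates 1 to 4 in turn, and lane as a covariate ended the call.

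At single ages the sexes stood apart in a few organs, in comparisons chosen after the data were seen. With at most 4 samples of each sex some such separations can arise by chance, and their number was not tested. Of the 36 pairs of organ and age with both sexes, 6 showed no overlap between females and males in the summed level, namely liver, skeletal muscle and thymus at week 2, adrenal gland at week 21, and lung at week 6 and week 104. The latter were opposite, with a lung mean of 680 CPM in females and 468 CPM in males at week 6, and of 320 and 418 CPM at week 104. At week 2 the female livers held 11854, 12093, 12986 and 13334 CPM of the cluster, and the male livers 22633, 25347, 26495 and 35438 CPM. Females were lower for 19 members (4.47% of all miRNAs), with a median log2 difference of −1.13 against −0.06 over all miRNAs. In liver at week 2 miR-134-5p differed by −1.92 ± 0.44, miR-409a-3p by −1.82 ± 0.42 and miR-376b-3p by −1.31 ± 0.31 (edgeR adjusted p = 0.0148 for each). miR-379-5p held 117, 141, 145 and 157 CPM in females and 205, 249, 332 and 571 CPM in males, a difference of −1.29 ± 0.37 (edgeR adjusted p = 0.0396). The female samples were the lower ones throughout. The mesenchymal list was also lower in female livers, at 1539 to 1830 CPM against 1969 to 2131 CPM, and its part was not tested. The count of 19 was 14, 0, 2 and 9 without replicates 1 to 4 in turn and 10 by library size alone, and 20 with lane as a covariate.

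In skeletal muscle at week 2 females held 28744, 35594, 36775 and 42274 CPM of the cluster and males 64584, 65278, 66103 and 66165 CPM. Females were lower for 10 members (4.74% of all miRNAs), led by miR-376b-3p at −1.89 ± 0.37 and including miR-134-5p at −1.38 ± 0.26 (edgeR adjusted p = 0.00208 for both). miR-411-5p ran from 14943 to 22470 CPM in females and from 33039 to 38015 CPM in males, without overlap, and was not among those called. These females were sequenced in lanes 1, 3 and 7 and these males in lanes 2 and 8, so lane and sex cannot be told apart. With lane as a covariate edgeR called 0 members, with 18 at an unadjusted p under 0.05, and DESeq2 without that term called 18. The skeletal muscle markers (miR-206-3p, miR-1-3p and miR-133a-3p) were higher in the females, at 73148 to 100688 CPM against 55382 to 69692 CPM. Their part in the difference was not tested. The count of 10 was 8, 6, 4 and 3 without replicates 1 to 4 in turn.

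In thymus at week 2 females held 448, 450.4, 471 and 491 CPM and males 694, 1095, 1131 and 1292 CPM. Only miR-411-5p was called there, by −0.91 ± 0.22 (edgeR adjusted p = 0.0487, 0.650% of all miRNAs), and leaving out any replicate number, or adding lane as a covariate, ended the call. The mesenchymal list ran from 642 to 798 CPM in female thymus and from 776 to 2026 CPM in males. The opposite direction was found in adrenal gland at week 21, where females held 14324, 18010, 20248 and 20719 CPM and males 9007, 9957, 11207 and 13918 CPM. Females were higher for 11 members (3.59%), among them miR-369-3p by 0.88 ± 0.19 (edgeR adjusted p = 0.0042). No sample of one sex reached the other here, but the count was 15, 0, 2 and 14 without replicates 1 to 4 in turn. These females were sequenced in lanes 2, 6 and 7 and these males in lanes 1, 4 and 5, so lane and sex cannot be told apart here either. With lane as a covariate edgeR called 0, with 27 at an unadjusted p under 0.05, and DESeq2 without that term called 12.

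The female-to-male difference was lower at week 2 than at the later ages for 9 members in skeletal muscle (2.45% of all miRNAs) and for miR-495 in liver (0.166%). In muscle these included miR-376b-3p, by −2.56 ± 0.49 (edgeR adjusted p = 0.0033), and the count of 9 was 4, 4, 7 and 3 without replicates 1 to 4 in turn. With lane as a covariate edgeR called 0, with 23 at an unadjusted p under 0.05, and DESeq2 without that term called 18. In liver the lane covariate gave 8 members in place of 1.

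**Figure D5:**
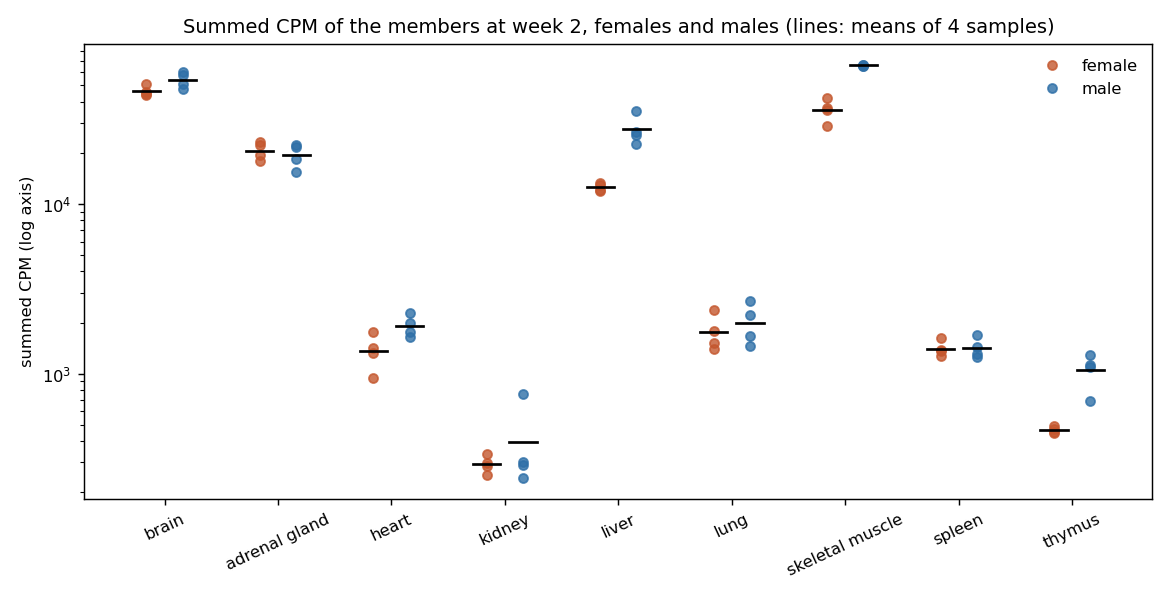
Each point is the summed CPM of the 59 members in 1 sample at week 2 (log axis), females in orange and males in blue beside each other for the 9 organs of both sexes, with lines at the means of 4 samples. Males lie above females without overlap in liver, skeletal muscle and thymus, and the sexes overlap in the other 6 organs.

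Outside the cluster, the miRNAs whose pattern over the 80 group means was most like that of the summed cluster all belonged to the same imprinted domain. Pearson's r of log2(CPM + 1) was 0.976 for miR-127-5p, 0.965 for miR-434-5p, 0.963 for miR-337-5p and miR-673-3p, and 0.962 for miR-341. Among the members themselves r with the sum, to which each contributes, was highest for miR-411-5p and miR-300-3p at 0.995 and lowest for miR-323-5p at 0.651. These values describe 80 group means that share rats, lanes and scaling, and carry no test.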

How the data were processed

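Small RNA libraries of the 320 samples were trimmed by the authors with fastp 0.23.2 and aligned with Bowtie 1.3.1 (versions per the submitters' processing notes, which name the rat build rn7). The deposited table holds whole-number read counts per mature miRNA (604 known, 12 candidates), not normalised, after rare miRNAs were dropped. Its 320 sample columns were matched to samples by library name. Groups of 4 came from the labels, which number each group's replicates. Within a group each is a separate rat's organ, so p-values of fits within 1 organ measure the spread between rats and libraries. Fits across organs, to which each rat gave several samples, treated those samples as independent. Sequencing lanes (8) were read from the labels.

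CPM used total miRNA counts. Reads are of whole molecules and were not scaled by length; ligation bias was not measured, and intervals of counting noise were not added. Members and marker lists were chosen with earlier results of these data known. Differences were fitted with edgeR 4.0.16 (R 4.3.3, limma 3.58.1) quasi-likelihood tests on all miRNAs with TMM scaling and Benjamini-Hochberg adjustment (called: adjusted p under 0.05 and at least 1.5-fold), by age within organ, organ within age, sex within organ and an age-by-organ interaction; proportions used the cluster total as library size. Folds against a group with at most 3 counts in every library are lower limits. The scripts were tested on simulated data. Alternatives were library size only, TMM without the members, DESeq2 1.42.0, a mean count of at least 10, lane as a covariate, all 320 samples, a 2-fold or no fold threshold, each replicate number left out, and the replicate number as a block; sex at single ages, its change with age and the domain ratio were added after the data were seen.

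Named members were the 10 with the highest mean CPM, miR-134-5p and miR-379-5p, the 3 largest called falls and rises in brain from week 2 to 104, members highest outside brain, the 2 falling in most organs, the largest sex call per organ, the 2 largest proportion differences in each direction between brain and adrenal gland at week 21, and the 5 non-members most correlated with the sum. miR-758-3p, miR-154-5p, miR-300-5p, miR-412-3p outside brain, miR-495, miR-667-5p, miR-487b-5p, and the arms of miR-154 and miR-376a were named after their values were seen. Mature sequences and positions are from RefSeq for GRCr8, which differs from the build above and was used for the miRNAs' own positions only. Python 3.11.15, pandas 2.3.3, NumPy 2.4.6 and matplotlib 3.10.9 made the tables and plots.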

Additional observations from a re-analysis of the deposited data

Results flagged for a closer look

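In 8 of 80 groups the sample with the highest or lowest summed level of the cluster lay farther from the other 3 than Dixon's test allows, and chance alone gives this in about 1 of 20 groups. Low samples were the female adrenal gland replicate 1 at week 6 (15389 CPM, others 17426 to 17622), the male adrenal gland replicate 4 at week 104 (16376 CPM, others 19821 to 20287), the male heart replicate 2 at week 21 (118 CPM, others 198 to 211) and the female skeletal muscle replicate 3 at week 6 (6242 CPM, others 9101 to 9581). High samples were the male kidney replicate 1 at week 2 (755 CPM, others 241 to 300.2) and the female liver replicate 4 at week 104 (266 CPM, others 26.5 to 33.5). The 2 samples left out of the comparisons were also among them, the male brain replicate 3 at week 6 (16364 CPM, others 28399 to 29192) and the female spleen replicate 4 at week 104 (5377 CPM, others 250 to 460).

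The change from week 2 to week 104 differed from that in brain, by the interaction term, in the higher direction for 37 members in adrenal gland (18.3% of all miRNAs) and 4 in kidney (6.66%). In the lower direction it differed for 59 members in skeletal muscle (27.6%), 51 in liver (23.9%), 49 in uterus (33.4%), 38 in lung (22.1%) and 33 in spleen (24.5%). It was also lower for 31 in heart (20.3%), 31 in thymus (33.6%), 15 in testis (24.0%) and 8 in kidney (20.0%). The testis and kidney counts were near or under the share of all miRNAs. The difference between females and males was lower at week 2 than at later ages for 9 members in skeletal muscle and 1 in liver.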

How the results depend on the processing

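Depth limits the rare members in the old liver, skeletal muscle and uterus, whose falls are lower limits. Over 76 counts and levels, 614 of 761 alternative values stayed within 1.5 times (counts) or the replicate spread (levels), and 147 did not. By library size alone the balance of higher to lower calls turned in testis from week 21 to week 104, in adrenal gland from week 2 to week 104, and for brain against adrenal gland at weeks 21 and 104 and against skeletal muscle at week 2. For single named members, 1707 of 1781 alternative values kept their side of the threshold, 47 lost it and 27 gained it. Except where a setting tests fewer miRNAs or demands a larger fold, the cause was not tested.

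Scaled by library size only, the median of all miRNAs lay 0.51 to 2.42 log2 units higher in brain than in the other organs. The counts against brain became 23 (from 6) for brain over all organs at 1.5-fold and 5 (from 2) at 4-fold. Against adrenal gland they became 5 lower (from 10) at week 2, 41 higher (from 18) and 7 lower (from 22) at week 21, and 36 higher (from 11) and 10 lower (from 23) at week 104. Against skeletal muscle at week 2 they became 28 higher (from 13) and 17 lower (from 27), and against liver 8 lower (from 13). Between week 2 and week 104 they became 39 lower (from 22) and 1 higher (from 4) in brain, 11 lower (from 4) and 7 higher (from 24) in adrenal gland, and 54 lower (from 31) in testis, where from week 21 to week 104 the rises became 2 (from 22). For the change compared with brain they became 2 in kidney (from 8), 13 in thymus (from 31) and 41 in testis (from 15). The sex counts became 2 over all organs (from 1), 10 in liver at week 2 (from 19), 6 in thymus (from 1), 23 in adrenal gland at week 21 (from 11), and 18 for the muscle change with age (from 9).

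With miRNAs of a mean count of at least 10 only, and thus fewer members tested, the counts became 3 and 1 for brain over all organs, 5 higher than adrenal gland at week 104 and 7 higher than muscle at week 2. Between week 2 and week 104 they became 17 lower in heart (from 40), 4 in kidney (12), 35 in liver (55), 24 in lung (52), 13 in spleen (42), 5 in thymus (35), 20 in testis (31) and 22 in uterus (51). The falls from week 2 to week 6 summed over organs became 215 (from 348), the kidney rises 8 (from 15), the differences from brain 2 in kidney, 20 in thymus and 5 in testis, and the muscle sex change 14. With TMM factors computed without the members, 17 were higher in brain than in adrenal gland at week 104, kidney differed from brain for 2, thymus at week 2 gave 0 for sex, and the muscle sex change 16. DESeq2 gave 12 lower in brain than in adrenal gland at week 21 (from 22), 2 for kidney against brain, 3 for sex over all organs, 18 for muscle at week 2, 18 for the muscle sex change and 5 for that of liver.

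With lane as a covariate testis had 20 falls (from 31), kidney 8 rises to week 6, adrenal gland 6 rises from week 21 (from 12), and the sex counts were 0 over all organs, in muscle, in thymus, in adrenal gland and for the muscle change, and 8 for the liver change. With all 320 samples, 6 members were higher in brain than in adrenal gland at week 104, spleen had 12 falls (from 42), and the differences from brain were 5 in spleen (from 33) and 4 in testis. At a 2-fold threshold brain had 14 falls and 1 rise, adrenal gland 9 rises and 2 from week 21, and kidney 8 rises to week 6, and with no fold threshold sex gave 4. With the cluster total taken without its most abundant member, proportions were smaller for 21 members in brain against adrenal gland (from 11), larger for 18 against muscle (from 29), and larger for 23 (from 13) and smaller for 7 (from 12) in the old brain.

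Same-numbered samples did not deviate together (mean correlation 0.0111 over 1422 pairs, and −0.0035 between other numbers), and the number was not used to pair samples. With the replicate number as a block, 52 of 54 counts stayed within 1.5 times, testis against brain became 7 (from 15) and thymus at week 2 became 0 for sex (from 1).

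Mean summed levels moved with the scale. TMM scaling gave 20613 CPM (from 50015) in brain at week 2, 13633 (from 28814) at week 6 and 12509 (from 24339) at week 104, 26345 (from 20280) in adrenal gland, 702 (from 340) in skeletal muscle and 234 (from 352) in spleen at week 104. CPM without the 10 most abundant miRNAs gave 90227, 57776 and 49099 in brain at weeks 2, 6 and 104, 57948 and 89756 in adrenal gland and 133190 and 961 in muscle at weeks 2 and 104, 30002 in liver at week 2 and 762 in spleen at week 104. The sum without miR-411-5p gave 37534, 19101 and 15870 in brain, 9625 and 9479 in adrenal gland, 23824 and 159 in muscle, 9598 in liver and 178 in spleen. With all 320 samples brain at week 6 was at 27258 and spleen at week 104 at 980 CPM.

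Leaving out each replicate number in turn gave these ranges. Brain over all organs was called for 4 to 6 and at 4-fold for 2 to 3 members. Against adrenal gland the ranges were 25 to 33 higher and 9 to 14 lower at week 2, 16 to 21 and 16 to 21 at week 21, and 8 to 12 and 21 to 25 at week 104. Against skeletal muscle at week 2 they were 9 to 14 and 26 to 33, and against liver 35 to 37 and 13 to 17. Falls from week 2 to week 104 were 20 to 23 in brain, 4 in adrenal gland, 39 to 42 in heart, 7 to 13 in kidney, 53 to 54 in liver, 46 to 51 in lung, 59 in skeletal muscle, 28 to 41 in spleen, 23 to 30 in thymus, 23 to 30 in testis, 46 to 49 in uterus, and rises 3 to 4 in brain and 17 to 23 in adrenal gland. Falls summed over organs were 291 to 320 at the first step, 107 to 124 at the second and 30 to 42 at the last, and rises 7 to 22 in kidney to week 6, 12 to 21 in testis and 5 to 14 in adrenal gland from week 21. Changes differing from brain were 21 to 31 in adrenal gland and 19 to 30 in heart, 0 to 6 in kidney, 50 to 51 in liver, 21 to 35 in lung, 57 to 59 in skeletal muscle, 16 to 31 in spleen, 15 to 31 in thymus, 3 to 16 in testis, 40 to 47 in uterus. Larger and smaller proportions were 27 to 28 and 10 to 12 for brain against adrenal gland, 26 to 30 and 14 to 17 for brain against muscle, 10 to 16 and 10 to 12 for the old brain. Sex counts were 0 to 2 over all organs, 0 to 14 in liver, 3 to 8 in muscle, 0 in thymus, 0 to 15 in adrenal gland, and 3 to 7 and 0 to 2 for the change in muscle and liver. Mean levels were 49490 to 51079 CPM in brain at week 2, 28574 to 28961 CPM in brain at week 6, 23683 to 24909 CPM in brain at week 104, 19292 to 20654 CPM in adrenal gland at week 2, 19659 to 21599 CPM in adrenal gland at week 104, 49523 to 51768 CPM in skeletal muscle at week 2, 311 to 374 CPM in skeletal muscle at week 104, 18568 to 20909 CPM in liver at week 2, 31.7 to 82 CPM in liver at week 104, 329 to 365 CPM in spleen at week 104. Percentages of the member counts were 24.6 to 25.5 and 34.4 to 35.4 for miR-411-5p in brain, 51.8 to 52.4 and 52.8 to 53.8 for miR-411-5p in adrenal gland, 29.2 to 31.1 and 16.4 to 17 for miR-410-3p in brain, 10.5 to 11 and 6.8 to 7.33 for miR-410-3p in adrenal gland, 5.21 to 5.86 and 6.69 to 7.62 for miR-541-5p in brain, 10.9 to 11.7 and 12.2 to 13.7 for miR-541-5p in adrenal gland at weeks 2 and 104.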
